A study of Mus musculus with 2 samples.

Results

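The microRNA genes from Mir379 to Mir410 form the downstream part of the imprinted Dlk1-Dio3 domain on mouse chromosome 12, and their levels were examined in embryonic liver. Members were all counted microRNA rows placed, on either strand, in the mm10 window of chromosome 12 that runs from Mir379 to just past Mir3072, which lies downstream of Mir410. The first member, Mir379, begins at 109709060 and the last, Mir3072, ends at 109747960. The rule found 38 of 1973 counted microRNA genes, 34 annotated on the plus strand and 4 on the minus strand. The window holds 44 annotated microRNA genes in GENCODE M21, of which 6 had no row of their own. Small RNA came from whole liver of B6NCrl mouse embryos at day 13.5, each sample a pool of male and female embryos. The series has 1 group of 2 libraries, labelled as biological replicates 1 and 2 from separate biosamples, with no treatment or mutant allele named. No comparison between conditions exists, so the 2 libraries serve to give the error of each level.

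Only the chromosome inherited from the mother expresses these microRNAs. They are cut from long non-coding primary transcripts, so many hairpins can come from the same RNA molecule, after which each is processed separately. The cluster is best known from brain, where it is abundant and several members act at synapses, and from the liver around birth, since mouse pups lacking the maternal copy fail to adapt their energy metabolism. At the age studied, the liver is chiefly a site of blood formation, with hepatoblasts, endothelium and mesenchyme around the blood cells.

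The sequences of the 6 members with the highest levels are shown first, since these carried most of the counts of the region. A microRNA recognises its targets mainly through its seed, bases 2 to 8 of the mature strand, which is in capitals here. Each hairpin can give a strand from its 5′ arm (5p) and from its 3′ arm (3p), and the deposited rows do not separate the arms, so a level belongs to the hairpin and not to either sequence. The sequences are from RefSeq (GRCm38.p6), read 5′ to 3′, and are all on the plus strand of chromosome 12.
miR-409-5p: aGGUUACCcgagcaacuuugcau
miR-409-3p: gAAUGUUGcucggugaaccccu
miR-411-5p: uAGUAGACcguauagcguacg
miR-411-3p: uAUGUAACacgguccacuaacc
miR-487b-5p: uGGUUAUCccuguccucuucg
miR-369-5p: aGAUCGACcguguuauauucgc
miR-369-3p: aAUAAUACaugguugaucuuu
miR-376a-5p: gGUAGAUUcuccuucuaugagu
miR-376a-3p: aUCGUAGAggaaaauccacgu
miR-154-5p: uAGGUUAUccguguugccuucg
miR-154-3p: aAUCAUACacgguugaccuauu

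No seed is shared among these 11 arms, in which Mir487b is represented by its 5p arm only. Across the region, RefSeq listed 69 mature arms for 37 of the 38 members, and they held 64 different seeds. Mir376c, Mir487b, Mir539, Mir485 and Mir453 had a single listed arm each, so a seed shared through an unlisted arm would be missed. Among the listed arms, shared seeds were found in 5 pairs of members, shown here because the arms of a pair could recognise the same target sites. The 3p arm of Mir411, printed above, shares its seed AUGUAAC with the 3p arm of Mir379, and the other pairs are miR-379-5p with miR-1193-5p, miR-758-5p with miR-1197-5p, miR-494-5p with miR-410-5p, and miR-496a-5p with miR-453.
miR-379-5p: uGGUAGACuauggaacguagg
miR-1193-5p: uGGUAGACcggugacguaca
miR-379-3p: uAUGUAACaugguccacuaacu
miR-758-5p: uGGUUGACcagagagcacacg
miR-1197-5p: cGGUUGACcaugguguguacg
miR-494-5p: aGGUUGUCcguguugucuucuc
miR-410-5p: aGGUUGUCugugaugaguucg
miR-496a-5p: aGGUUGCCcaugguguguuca
miR-453: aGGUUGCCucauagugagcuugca

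The hairpins behind the seed AUGUAAC, Mir379 and Mir411, summed to 27793 ± 111 CPM (counts per 1000000 microRNA counts on either strand; SD, n = 2). Those behind GGUAGAC, Mir379 and Mir1193, summed to 12617 ± 669 CPM. The other 3 pairs lay lower, at 1726 ± 56.6 CPM for GGUUGUC (Mir494 and Mir410), 374 ± 57.3 CPM for GGUUGCC (Mir496a and Mir453) and 74.9 ± 1.86 CPM for GGUUGAC (Mir758 and Mir1197). In the GGUUGCC pair all counts came from Mir496a. Mir379 is common to both of the higher pairs through its different arms. Within the window, the seed of miR-376c-5p is also that of miR-376b-5p, but Mir376b had no row and was not a member. Seeds found in mature microRNAs outside the window were held by 10 of the 69 arms. Among them, the seed of miR-329-3p is also that of miR-362-3p, and that of miR-410-3p is also that of miR-344d-3p and miR-344e-3p.

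Reads at 4 members were counted through rows annotated on the minus strand, and the opposite-strand column was used for these. Opposite Gm24321, at the hairpin of Mir409, lay 72806 counts in replicate 1 and 144711 in replicate 2. Opposite Gm25252, at Mir376a, lay 29842 and 46377 counts, opposite Mir299b, at Mir299a, 12220 and 19253, and opposite Gm25750, at Mir380, 8167 and 11482. On their own strand Gm24321, Gm25252 and Gm25750 had no count in either library, and Mir299b had 12 and 34. The 34 plus-strand members together held 1 count on their opposite strand in replicate 1 and 0 in replicate 2. Reads of this region thus lay almost entirely on the plus strand. The 4 hairpins are called Mir409, Mir376a, Mir299a and Mir380 here, and they made up 27.9% of the counts of the region in replicate 1 and 30.0% in replicate 2. Mir376b and Gm44322 have no row of their own and were not analysed here. Gm44322 is annotated on the minus strand across from Mir539, whose row had 0 counts on the opposite strand in both libraries.

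The region gave 15.3% ± 0.184 of all microRNA counts (SD, n = 2). Of 2909040 microRNA counts in replicate 1, 441558 fell to the members, or 15.18% (95% Clopper-Pearson interval 15.14% to 15.22%). Replicate 2 had 739592 of 4790617, or 15.44% (15.41% to 15.47%). The intervals cover counting error only, and they do not overlap. At least 10 counts in each library, the limit for detection, were reached by 34 of the 38 members. Without the 4 members read through minus-strand rows the share was 10.9%, and without the highest member, Mir409, it was 12.5%. In bulk tissue, fewer expressing cells and less RNA per cell cannot be told apart.

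Sums over marker microRNAs of fetal liver cells were high in both libraries, but not every listed gene was high. The 5 hepatocyte genes summed to 75806 and 76406 CPM in replicates 1 and 2, of which Mir122 gave 71565 and 71715 CPM. The others ran from Mir194-1 at 6.19 and 8.35 CPM to Mir192 at 2361 and 2603 CPM. Sums for the 3 erythroid genes were 16123 and 29560 CPM, the widest gap among the marker lists. Mir451a alone carried it, at 9635 and 23572 CPM, while Mir144 (5741 and 5255 CPM) and Mir486 (747 and 733 CPM) were slightly lower in replicate 2. The leukocyte pair, Mir223 and the reads opposite Mir142b, summed to 51102 and 49716 CPM. The 5 mesenchymal genes, 4 of them detected, summed to 18617 and 17860 CPM, of which Mir143 gave 16615 and 15682 CPM. The other mesenchymal genes ran from Mir199a-1 at 2.41 and 0.835 CPM to Mir214 at 1724 and 1899 CPM. Mir126a, an endothelial microRNA, stood at 51540 and 48808 CPM. Of the 7 counted neural genes, 2 were detected and 4 were at 0, and the list summed to 176 and 139 CPM. Neural genes such as Mir124a have copies in the genome whose shared reads are not assigned to a gene. Which cells carried the region's microRNAs was not tested.

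Other parts of the genome gave a scale for these levels. The 20 microRNA rows upstream in the same domain hosted around Meg3, the Rtl1 antisense transcript and Rian, held 5.06% ± 0.119 of counts, with 14 of them detected and a median gene at 247 CPM. The median member of the region was at 1018 CPM. The miR-17-92 cluster, a growth-promoting polycistron, held 8.09% ± 0.767 with 6 genes and a median of 7290 CPM. Over the 369 detected genes of the whole table the median was 140 CPM, and over the 34 detected members it was 1533 CPM. With each library as a unit, the smallest two-sided p that an exact sign-flip test over 2 libraries allows is 0.5, so these differences carry no test. Among the counted reads, the region held the highest sum of the 3 clusters, and the miR-17-92 cluster had the highest median. Reads mapping to several places were left out of each sum, and what they would add to each cluster was not tested.

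**Figure D1:**
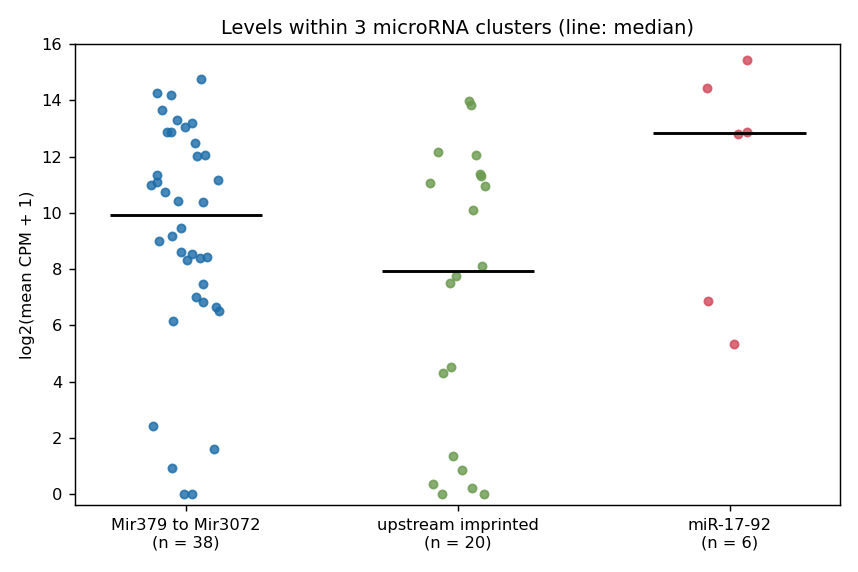
Levels within 3 microRNA clusters. The vertical axis is log2 of the mean CPM of 2 libraries plus 1, each point is a gene and each line the median of its cluster. The 38 members spread from 0 to 27617 CPM around a median of 1018 CPM, with the 20 upstream genes around 247 CPM and the 6 miR-17-92 genes around 7290 CPM.

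Mir409 was the highest member, at 25027 CPM in replicate 1 and 30207 CPM in replicate 2. It took place 8 among all 1973 rows when both strands were counted for each row, and made up 16.5% of the region in replicate 1 and 19.6% in replicate 2. Mir411 followed at 19189 and 19625 CPM (place 13), and Mir487b at 19643 and 17729 CPM (place 14). These 2 changed order between the libraries and could not be ranked. Mir487b is among the members reported to limit the regrowth of blood vessels after ischaemia, along with Mir329, Mir494 and Mir495. Mir411 and Mir487b each share a word of 20 bases with another hairpin of the region, with Mir758 and Mir376b, and a read that lies within such a word maps to both places and is not assigned.

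Mir369 stood at 13620 and 12453 CPM in the 2 libraries. Its 3p strand is known for acting on AU-rich elements of messenger RNA. Mir376a, from a family whose primary transcripts are known substrates of A-to-I RNA editing, stood at 10258 and 9681 CPM. Mir154, which names the largest sequence family of the domain, was at 9369 and 9295 CPM. The 1.01-fold difference between its libraries did not pass the exact binomial test described further on (adjusted p = 0.564).

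Mir379, the most upstream member, was at 8683 and 8090 CPM. It is induced by glucocorticoids in hepatocytes, where it acts on lipid handling. Mir382 was at 7616 and 7336 CPM, and Mir541 at 6053 and 8850 CPM, so Mir541 lay below Mir382 in replicate 1 and above both Mir382 and Mir379 in replicate 2. Mir381, at 5718 and 5602 CPM, completed the first 10. The first 3 members held 42.9% ± 1.20 of the counts of the region, the first 5 held 58.0% ± 0.209 and the first 10 held 83.0% ± 0.711.

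**Figure D2:**
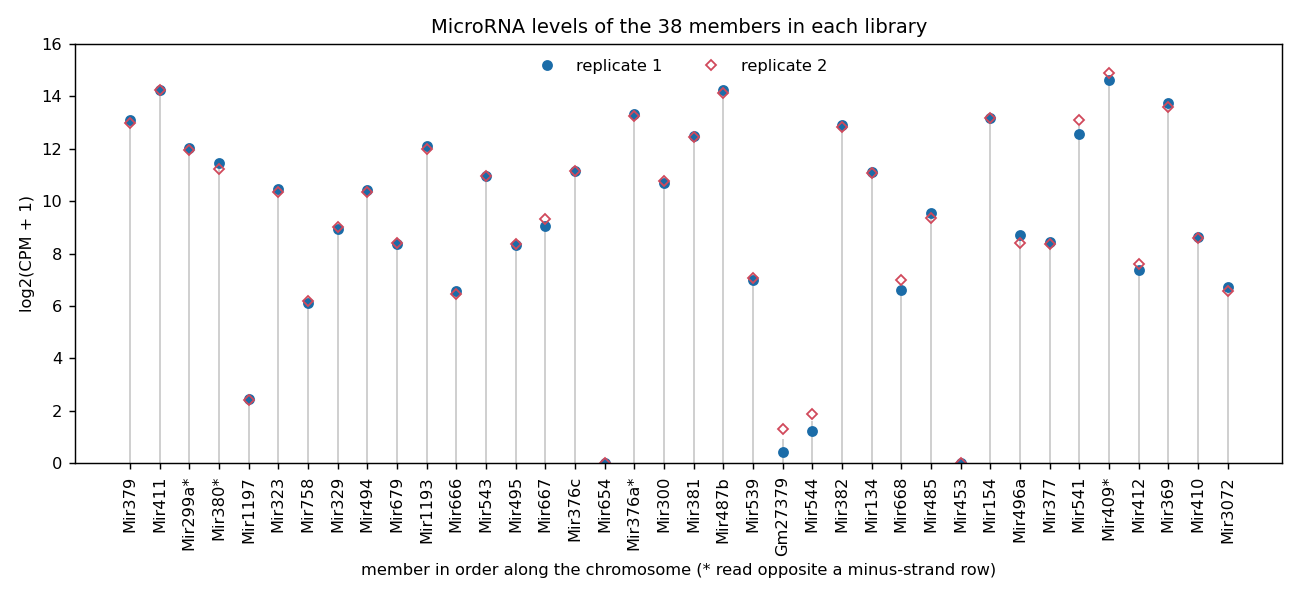
Level of each member in each library, in order along the chromosome. The vertical axis is log2(CPM + 1), filled circles are replicate 1, open diamonds replicate 2 and grey lines run to the mean. Circles and diamonds lie close together for the 34 detected members, and Mir654 and Mir453 lie at 0 in both libraries.

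Below these, 9 more members reached 1000 CPM by mean. Mir1193 was at 4230 ± 250 CPM and Mir299a at 4110 ± 129 CPM. Mir380 was at 2602 ± 290 CPM, Mir376c at 2302 ± 0.0427 CPM, Mir134 at 2172 ± 30.8 CPM and Mir543 at 2015 ± 2.56 CPM. The smallest of these SDs understate the error. Counting intervals of the difference between libraries ran from -0.044 to 0.044 in log2 for Mir376c and from -0.044 to 0.050 for Mir543. Mir134 limits the growth of dendritic spines in neurons through Limk1, and its level here was 2194 and 2150 CPM. Mir300 followed at 1703 ± 51.9 CPM, and its 3p arm is 3 mismatches from that of Mir381, which was higher at 5660 ± 82.2 CPM. Mir323 and Mir494 closed this range at 1362 ± 90.5 and 1338 ± 47.0 CPM and changed order between the libraries.

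Another 11 members had means between 100 and 1000 CPM. Mir485, which acts on the synaptic vesicle protein Sv2a in neurons, was highest among them at 740 and 656 CPM. Mir667 was at 582 ± 79.3 CPM and Mir329 at 506 ± 17.1 CPM. Mir410, which gives the cluster its downstream name, was at 395 and 381 CPM, against 8683 and 8090 CPM for Mir379 at the upstream end. Mir496a, Mir377, Mir679 and Mir495 lay between 322 and 374 CPM. Mir412 was at 177 ± 19.8 CPM, Mir539 at 129 ± 4.32 CPM and Mir668 at 112 ± 21.7 CPM.

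Mir3072, Mir666 and Mir758 lay between 70.5 and 99.3 CPM. The lowest 5 members were Mir1197, Mir544, Gm27379, Mir453 and Mir654. Mir1197 just passed the limit for detection with 13 and 21 counts. Mir544 had 4 and 13 counts and Gm27379 had 1 and 7. Mir453 and Mir654 had 0 counts in both libraries, and a count of 0 allows up to 3 counts, or 1.03 CPM in replicate 1 and 0.626 CPM in replicate 2. Over all 38 members the SD of log2(CPM + 1) was 4.04, and over the 34 detected members it was 2.87.

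The order of the members was nearly the same in both libraries. Of the 703 pairs of members, 8 changed order, and 6 of the 37 pairs next to each other in the order by mean did so. Beside Mir411 with Mir487b, Mir382 with Mir541 and Mir323 with Mir494, these were Mir410 with Mir496a, Mir377 with Mir679 and Mir668 with Mir3072. Of the 100 highest rows of the whole table with both strands counted, 19 were members, and 10 of them were among the first 50.

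Levels showed little order along the chromosome. Across the 38 members, Spearman's rho between distance from the Mir379 hairpin and mean CPM was -0.0592, given as a description since members share libraries and a region. High and low hairpins lay side by side at several places, while Mir379, Mir411, Mir299a and Mir380 stood in a row at 2602 CPM or more. Hairpins next to each other lay a median of 590 bases apart, and the 30 neighbouring pairs with both members detected differed by a median of 2.64 in log2(CPM + 1). Among them, 13 pairs differed at least 10-fold, and these included 8 of the 14 pairs no more than 500 bases apart. The pairs named next were chosen after their values were seen.

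Steep changes over short distances were found at the downstream end. Mir409 and Mir412 are 51 bases apart, and Mir409 was 154-fold higher in replicate 1 and 158-fold higher in replicate 2. Mir369 begins 49 bases after Mir412 and was 83.6-fold and 65.2-fold above it. Mir410, 218 bases on, was 34.5-fold and 32.7-fold below Mir369. A high, a low, a high and a low hairpin thus followed each other in both libraries within the stretch from Mir409 to Mir410.

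A similar alternation was found upstream. Mir1197 lies 71 bases before Mir323, which was 319-fold and 296-fold higher on the 13 and 21 counts of Mir1197. Mir758, 216 bases after Mir323, was 20.6-fold and 18.1-fold below it. Mir543 was 21.6-fold and 22.9-fold above Mir666, 74 bases before it. Mir679 and Mir1193 are only 20 bases apart, and Mir1193 was 13.5-fold and 12-fold higher. In each of these pairs the direction and the approximate size were the same in both libraries, while the members of a pair differed far more than the libraries did.

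**Figure D3:**
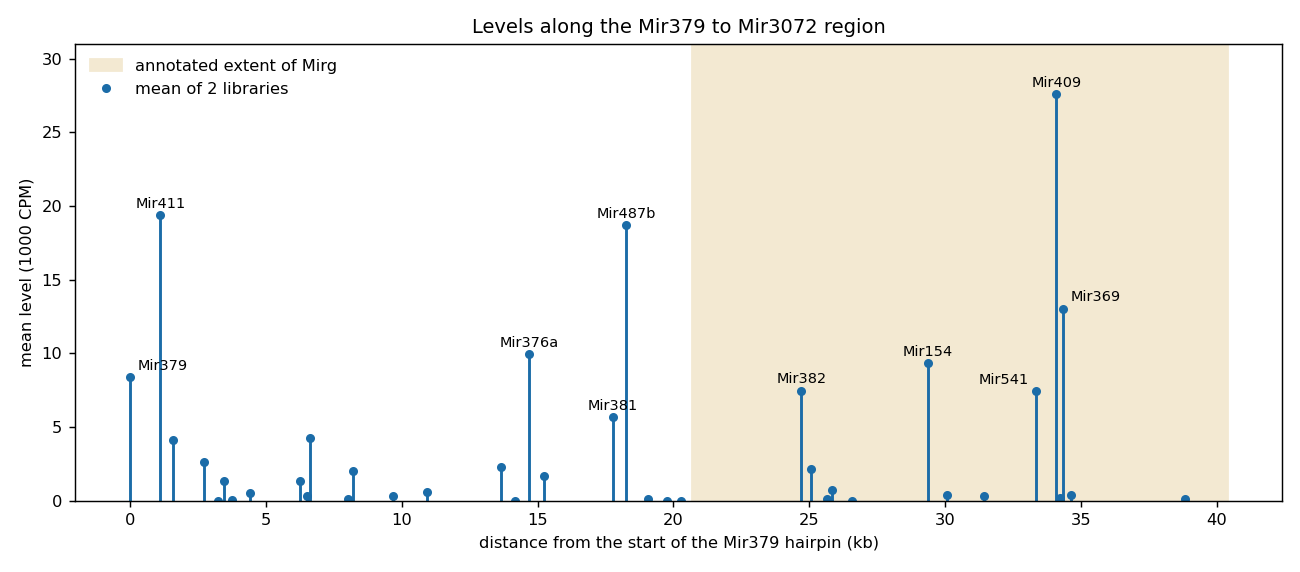
Mean level of each member by distance from the start of the Mir379 hairpin. The horizontal axis is in kb and the vertical axis in units of 1000 CPM (mean of 2 libraries), and the shaded span is the annotated extent of the non-coding gene Mirg. The 10 highest members are named, and high members stand beside members near 0 at several places.

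GENCODE M21 annotates the long non-coding gene Mirg at chr12:109729764-109749460, over the downstream members. Before Mirg lay 24 members, which held 54.8% ± 2.35 of the counts of the region, and the 14 within Mirg held 45.2% ± 2.35. Median levels were 1350 CPM before Mirg and 543 CPM within it. Of the 14, 5 lay in introns, with a median of 7452 CPM (Mir453, Mir154, Mir496a, Mir541 and Mir409), and 4 lay wholly in exons (Mir134, Mir485, Mir377 and Mir410), with a median of 543 CPM. The other 5 (Mir382, Mir668, Mir412, Mir369 and Mir3072) crossed an exon boundary of at least 1 transcript and had a median of 177 CPM. Each of these groups is small and ranged widely. The intronic members ran from Mir453 at 0 to Mir409 at 27617 CPM, and the exonic members from Mir377 at 341 CPM to Mir134 at 2172 CPM. Those across an exon boundary ran from Mir3072 at 99.3 CPM to Mir369 at 13036 CPM.

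Features of the hairpin followed the level weakly at most. Their annotated lengths ran from 61 to 123 bases, with a median of 79, and GC content from 29.1% to 72.3%, with a median of 44.4%. Across the 38 members, Spearman's rho with mean CPM was -0.25 for length, -0.33 for GC content and -0.05 for the folding energy per base that RNAfold predicted. These are descriptions over members of the same libraries, and annotated hairpins include different amounts of flanking sequence.

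The libraries were then compared member by member. A two-sided exact binomial test asked whether each gene's counts were divided like the library totals, which compares these 2 libraries and no conditions. The p-values were adjusted by the Benjamini-Hochberg method over the whole table, with 0.05 as the threshold. Called were 17 of the 36 members that had any count, and 20.9% of all 714 genes with a count. Of the 17, 6 were higher in replicate 2 (background 8.68%) and 11 lower (background 12.2%). The members had more counts than most genes, which lets the test call smaller differences. Among genes with at least 1000 counts in total, 16 of 28 members were called against 60.6% of all 188 such genes, a share near the background.

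In size these differences were small. None of the 34 detected members differed by 1.5-fold or more, against a background of 13.3% of 369 detected genes. With at least 1000 counts in total the background was 3.19% of 188 genes, and 0 of 28 members passed, so the count of 0 is near what deep genes show. The median absolute difference of the 28 members was 0.071 in log2, or 1.05-fold, and that of the 160 other genes of this depth was 0.113, or 1.08-fold. The median signed difference of the detected members, -0.029 in log2 for replicate 2 minus replicate 1, was close to the -0.033 of all detected genes.

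Mir541 had the largest difference upward among the called members. It rose from 17609 counts in replicate 1 to 42397 in replicate 2, a difference of 0.55 in log2 (95% counting interval 0.52 to 0.57), or 1.46-fold. With edgeR's TMM scaling it reached 0.59, just past 1.5-fold. Mir668 followed at 280 and 608 counts, a difference of 0.40 in log2, and its exact test gave an adjusted p of 0.000872. For Mir667, with 1529 and 3055 counts, the difference was 0.28 and the adjusted p of the exact test 5.96e-09. Mir409 was higher by 0.27 in log2 (0.26 to 0.28), so the leading member of the region also differed by more than counting error.

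Lower values in replicate 2 were found for Mir496a, which fell by 0.31 in log2, from 1206 and 1598 counts, with an adjusted p of 1.65e-07 in the exact test. Mir380 fell by 0.23 with an adjusted p of 3.87e-26. Mir485, with 2153 and 3145 counts, fell by 0.17 with an adjusted p of 0.000156. Mir541 and Mir409, both higher in replicate 2, lie 659 bases apart. Mir412, between Mir409 and Mir369, was higher by 0.23 with an adjusted p of 0.0272, while Mir369, 49 bases further on, fell by 0.13 with an adjusted p of 1.17e-41. Mir412 and Mir369, neighbours within the same annotated gene, Mirg, therefore differed in opposite directions between the 2 libraries. This pair was named after its values were seen, and its calls were not examined under other scalings. Of the 3 erythroid markers, Mir451a was also higher in replicate 2 and Mir144 and Mir486 were lower, and their part in these differences was not tested.

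**Figure D4:**
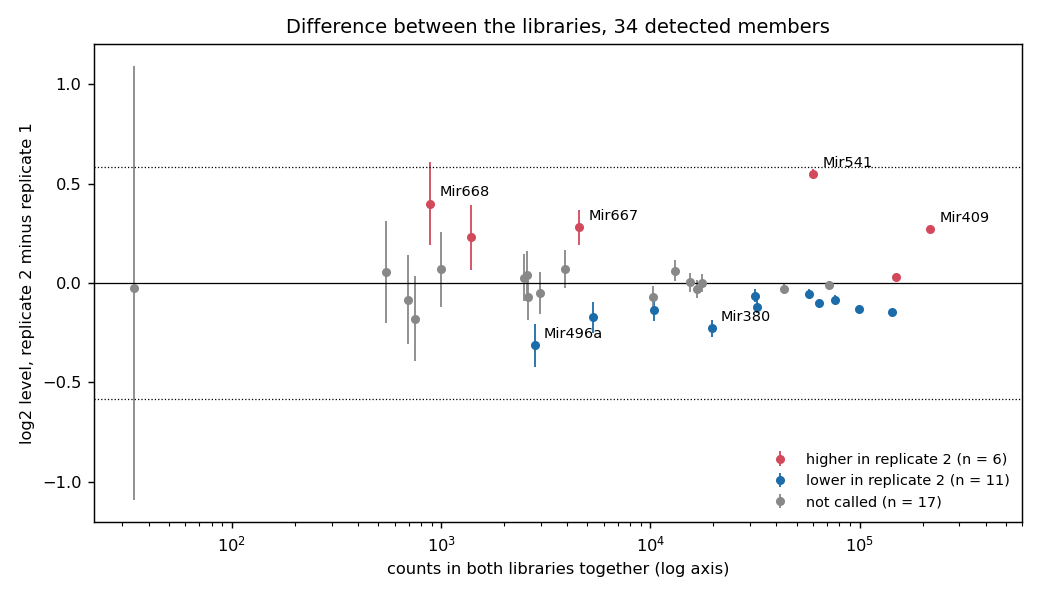
Difference between the libraries for the 34 detected members. The horizontal axis is the count in both libraries together (log axis), the vertical axis log2 of the level in replicate 2 minus replicate 1, bars are 95% counting intervals and dotted lines mark 1.5-fold. Colours give the call of the exact binomial test: 6 members higher, 11 lower, and Mir541 nearest to the dotted line at 1.46-fold.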

How the data were processed

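For each library the authors deposited a table of unnormalized counts of reads by gene. The file lists name the mm10 build and GENCODE M4. An aligner and a counter were not given in the sources used here. The columns of a table hold both strands together, the strand of the gene and the opposite strand, as the values show. Reads mapping to several places (36.7% and 32.0% of all reads), unmapped reads (19.6% and 24.2%) and reads outside genes (5.72% and 5.64%) were left out.

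Genes were placed by identifier with GENCODE M21 (1894 of 1973 matched), which is on the same build. Levels use gene-strand counts, and opposite-strand counts for minus-strand members and minus-strand rows of the upstream part. All other genes, also in the backgrounds, have gene-strand counts only, apart from Mir142b in the marker sum. CPM is counts over all microRNA counts on either strand times 1000000. Earlier results of these data were known when the members and lists were chosen.

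The named genes are the 10 highest members, the 3 largest called differences in each direction with at least 100 counts in total, the minus-strand rows, the lowest 5, shared seeds and both ends. The libraries were compared across all genes with a two-sided exact binomial test and Benjamini-Hochberg adjustment. It was tried on simulated counts that held counting error only, which cannot show how it behaves under further spread between replicates. Tools were Python 3.11.15, scipy 1.17.1, RNAfold 2.7.2, and edgeR 4.0.16 and DESeq2 1.42.0 for alternative scalings. Replicates come from separate biosamples, and counting intervals cover no other error. Other alternatives were strand, detection limit, pseudocount, low count filter, shared words of 20 bases and each library alone.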

Additional observations from a re-analysis of the deposited data

Results flagged for a closer look

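Reads appeared in a column that the levels above do not use. Mir299b, the minus-strand row that overlaps Mir299a, had 12 counts on its own strand in replicate 1 and 34 in replicate 2, or 4.13 and 7.10 CPM, above the 3 counts that a count of 0 allows. They stood beside 12220 and 19253 counts on the plus strand, which made up 99.9% and 99.8% of the reads of this row. Over the bases that both RefSeq entries hold, miR-299a-3p has 0 mismatches to miR-299b-3p. No other member had more than 3 counts on the strand not used. No group has more than 2 libraries, so none was searched for a library that stands apart.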

How the results depend on the processing

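The share of the region moved with what was counted. From 15.3% it went to 17.1% with only counts on the strand of the gene in the total. That total lacked all opposite-strand counts, while the 4 members read through the opposite strand kept theirs. The 17.1% is therefore too high to be read as a share. The value was 10.9% with the strand of the gene for each member, and 11.3% without the 4 members that share a word of 20 bases. Chosen after seeing the data, leaving out the 4 members read through the opposite strand gave 10.9%, and leaving out Mir409 gave 12.5%. The share stayed within 1 SD with both strands and with TMM and DESeq2 scaling. Its SD rose from 0.184 to 0.474 with TMM and to 0.426 with DESeq2. Each library alone must lie within 1 SD of the mean of 2 libraries, so that setting cannot show a shift. Members at 1.5-fold or more went from 0 to 1 with TMM scaling (Mir541), to 1 with the strand of the gene for each member (Mir299b), and to 2 with a detection limit of 1 count (Mir544 and Gm27379). Members detected ran from 31 to 36 and members called from 13 to 19. The spread of levels, 4.04, went to 4.59 with the strand of the gene, to 4.57 with a pseudocount of 0.1 and to 3.35 with 10. Spearman's rho with position, -0.0592, stayed near 0: -0.00449 with the strand of the gene, -0.0084 for detected members, -0.0257 without shared words, -0.0418 within Mirg (chosen after seeing the data), and -0.0592 to -0.0539 with a library left out. The 6 named differences kept direction and call under 3 other scalings. The causes of these shifts, beyond the members or strands left out, were not tested. No paired analysis was possible because the series holds only 1 group of samples. Depth limits the members below 10 counts, for which no level can be ranked.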

Other observations

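Mature arms of the region shared letters beyond exact seeds. These patterns were noticed on reading the sequences and are descriptions, with no test. The letters GGU at bases 2 to 4 were found in 14 of 35 5p arms (40.0%), among them miR-379-5p, miR-299a-5p, miR-487b-5p and miR-409-5p, and in 11 of 660 5p arms elsewhere in the RefSeq table (1.67%). The letters ACANGG, at any place, were found in 11 of 33 3p arms (33.3%), among them miR-379-3p, miR-411-3p, miR-154-3p and miR-369-3p, and in 9 of 674 elsewhere (1.34%). Only the strand of the mature arm was searched. Members with GGU had a median level of 960 CPM and those without it 2015 CPM. For ACANGG the medians were 1362 CPM with and 544 CPM without. Levels within each set ran widely: among members with GGU, Mir409 stood at 27617 CPM and Mir654 at 0.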
